A study of Arabidopsis thaliana with 6 samples.

Results

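PHYTOCHROME-INTERACTING FACTORS (PIFs) are basic helix-loop-helix (bHLH) transcription factors that promote elongation growth and are inactivated when phytochrome, the red and far-red light receptor, is switched on by light. Under leaf shade phytochrome is switched off, PIFs accumulate, and genes such as ATHB2 and PIL1 are induced within minutes. HFR1 and PIL1 are bHLH relatives that hold the response back, and the class II homeodomain-leucine zipper (HD-ZIP II) factors act downstream in shade growth and also in leaf development. The 10 genes described here are PIF3, PIF4, PIF5, PIL1 and HFR1 and the HD-ZIP II genes ATHB2, ATHB4, HAT1, HAT2 and HAT3, taken by locus from a deposited table of 21981 genes. All 10 were present in it.

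The values come from RNA sequencing of leaves of 4-week-old Arabidopsis thaliana of the Col-0 accession. The groups were 3 wild-type samples and 3 samples titled as transgenic lines 1 to 3, grown in long days (16 h light and 8 h dark) at about 22 °C. Seeds of both groups were germinated on sterile MS medium with 3% sucrose, and the seedlings were moved to soil after the first week. The labels name neither the transgene nor its promoter, and they do not say whether a sample was 1 plant or a pool. A p-value here weighs a difference against the pooled scatter of 3 samples per group, but not against that of the gene alone. The fit draws each gene's scatter toward the scatter usual for genes of similar level. For the wild type, titled as replicates, some or all of the scatter between samples could be technical. For the lines it also holds any difference between lines, so the pooled scatter mixes unlike kinds. A drought treatment is mentioned in the same words for every sample, and no shade treatment or hour of harvest is given.

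Levels are FPKM, fragment counts scaled for transcript length and sequencing depth, so they can be set side by side between genes. Between samples they can be compared only with the limit given below. limma was run on log2(FPKM + 1) for the 17093 genes whose mean over all samples reached 1 FPKM, with Benjamini-Hochberg adjustment over all of them and calls made below 0.05. A positive log2 fold change means higher in the lines, and the added 1 understates the change of low genes. Summed FPKM ran from 970376 to 982620 for wild type and from 1261802 to 1278449 for the lines. Sums of FPKM times exonic length in kilobases ran from 1422041 to 1445917 and from 1829193 to 1857715. The scaling for depth therefore does not by itself make the samples comparable. The groups therefore differ in total in a way that no label explains, and small log2 fold changes depend on how the samples are put on a common scale. Rescaling every sample to the same total, here named TPM rescaling, moved the median log2 fold change over all tested genes from 0.027 to -0.31, so for the called genes named here its value is given where it differs from the one as deposited by over 1.5 times.

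Of the 10 genes, 9 reached the filter. ATHB2 rose, HAT1, HAT2 and HAT3 fell, and PIF3, PIF4, PIF5, HFR1 and ATHB4 were not called. Of the 4 tested PIF-type genes 0 were called with limma, and 0 had an unadjusted p under 0.05. Of all tested genes 40.7% were called, 25.0% higher and 15.7% lower, so 4 calls among 9 genes is a share near that of the genome and is no result about the 10 genes as a set. The groups did not overlap for the same 4 of the 9, against 52.2% of all tested genes, with 30.2% wholly above wild type and 22.0% wholly below. The median log2 fold change was -0.37 over the 5 HD-ZIP II genes and -0.0045 over the 4 tested PIF-type genes, against 0.027 over all tested genes.

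**Figure D1:**
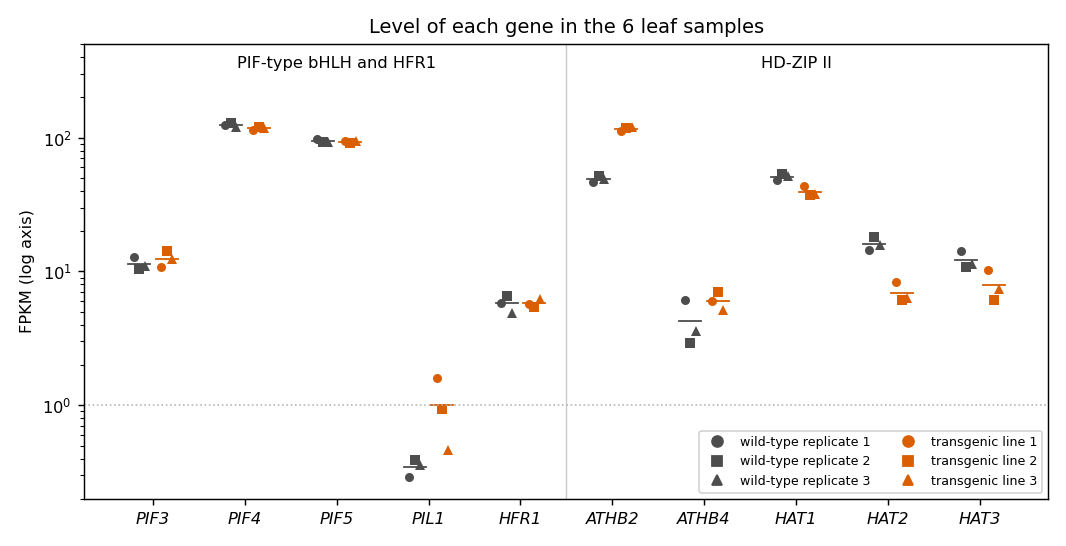
FPKM of each gene (log axis) in every sample, with grey symbols for the wild-type replicates, orange symbols for the transgenic lines, a short bar for each group mean and a dotted line at 1 FPKM. The groups overlap for PIF3, PIF4, PIF5 and HFR1, for PIF4 only in that line 2 lies above wild-type replicate 3. They lie apart for ATHB2 (48.9 against 116.5 FPKM on average) and HAT2 (16.0 against 6.92 FPKM).

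PIF4 and PIF5, the PIFs best known for daily rhythmic and warm-temperature elongation growth, were the most abundant of the 5 PIF-type transcripts in both groups. PIF4 (AT2G43010, TAIR10.1 chromosome 2, 17886101 to 17889087, plus strand) had 124.6, 127.6 and 119.1 FPKM in the wild-type samples against 114.1, 119.9 and 118.7 FPKM in lines 1, 2 and 3. The groups overlapped only in that line 2 lay above wild-type replicate 3. The log2 fold change was -0.07 (SE 0.050, limma adjusted p = 0.283). Its 95% interval ran from -0.19 to 0.04.

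PIF5 (AT3G59060, chromosome 3, 21827905 to 21830837, minus strand) had 97.4, 92.4 and 93.1 FPKM in the wild-type samples against 93.5, 91.5 and 94.1 FPKM in the lines. Its log2 fold change was -0.02 (SE 0.050, limma adjusted p = 0.793), with an interval of -0.13 to 0.09. Both results depend on the scale. PIF4 was called lower after quantile normalization (log2 fold change -0.36, limma adjusted p = 0.000966), after cyclic loess (-0.36) and after TPM rescaling (-0.45). PIF5 was also called lower in these, at -0.28, -0.28 and -0.39. With them 5 of the 9 genes were lower and 1 higher under each of the 3. Of all tested genes 39.3% were then called after quantile normalization (19.1% higher, 20.2% lower), 39.1% after cyclic loess (19.2% and 19.9%) and 60.1% after TPM rescaling (11.2% and 48.9%). The median over all tested genes of -0.31 under TPM rescaling stands beside these -0.45 for PIF4 and -0.39 for PIF5; after quantile normalization and cyclic loess that median was -0.0079 and -0.0072. The adjusted p over 16 alternatives ran from 0.000121 to 0.544 for PIF4 and from 0.000186 to 0.961 for PIF5.

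A ratio of genes within a sample does not depend on the scale between samples. PIF4 stood at 1.28, 1.38 and 1.28 times PIF5 in wild type and at 1.22, 1.31 and 1.26 times PIF5 in the lines. These ranges overlap. PIF4 held 52.5% ± 1.09 of the summed FPKM of the 5 PIF-type genes in wild type and 51.2% ± 0.587 in the lines (SD, n = 3), and PIF5 held 40.0% ± 0.965 and 40.5% ± 0.994.

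PIF3, which acts mainly in seedlings leaving darkness, was about an order of magnitude below PIF4. Its values were 12.9, 10.3 and 11.0 FPKM in the wild-type samples against 10.8, 14.2 and 12.4 FPKM in the lines, and the groups overlapped. The log2 fold change was 0.11 (SE 0.125, limma adjusted p = 0.51), or -0.24 after TPM rescaling. HFR1, which binds PIF4 and PIF5 and keeps them off DNA, had 5.84, 6.60 and 4.86 FPKM in the wild-type samples against 5.74, 5.41 and 6.20 FPKM in the lines. The HFR1 groups overlapped, at a log2 fold change of 0.0098 with an interval of -0.30 to 0.32, a value that turned to -0.31 after TPM rescaling and to -0.033 with median-of-ratios factors.

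PIL1, in seedlings one of the fastest transcripts to rise in shade, was the lowest of the 10 genes. It had 0.289, 0.391 and 0.361 FPKM in the wild-type samples against 1.60, 0.941 and 0.467 FPKM in lines 1, 2 and 3. Every line lay above every wild-type sample, but the lines differed among themselves more than line 3 differed from wild type. Its mean of 0.674 FPKM missed the filter. With no filter its log2 fold change was 0.53 (SE 0.212) and was not called (limma adjusted p = 0.13).

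ATHB2 (AT4G16780, chromosome 4, 9449114 to 9450905, plus strand), an HD-ZIP II factor that promotes stem and petiole elongation in shade, had 46.2, 51.4 and 49.2 FPKM in the wild-type samples against 112.9, 117.3 and 119.4 FPKM in the lines. No line came near the wild-type range, and the 3 lines lay close together. The log2 fold change was 1.24 (SE 0.059, limma adjusted p = 4.41e-07), a ratio of mean FPKM of 2.38. ATHB2 stayed called higher in all 16 alternatives, at log2 fold changes from 0.86 (TPM rescaling) to 1.27.

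HAT2 (AT5G47370, chromosome 5, 19216271 to 19218007, minus strand), an auxin-inducible HD-ZIP II gene, moved the other way. It had 14.5, 17.9 and 15.6 FPKM in the wild-type samples against 8.31, 6.16 and 6.29 FPKM in the lines, which all lay below wild type. The log2 fold change was -1.11 (SE 0.133, limma adjusted p = 0.000155), and it stayed called lower in all 16 alternatives, from -1.44 to -1.03.

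HAT1 (AT4G17460, chromosome 4, 9739518 to 9741234, plus strand), which also acts in brassinosteroid responses, had 48.3, 53.6 and 51.6 FPKM in the wild-type samples against 43.7, 37.0 and 37.6 FPKM in the lines. The groups did not overlap, with line 1 the nearest to wild type. The log2 fold change was -0.37 (SE 0.081, limma adjusted p = 0.00539), and HAT1 stayed called lower in its 16 alternatives, from -0.74 (TPM rescaling) to -0.33.

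HAT3 (AT3G60390, chromosome 3, 22320580 to 22322661, minus strand), which with ATHB4 sets the upper side of the leaf, had 14.2, 10.8 and 11.3 FPKM in the wild-type samples against 10.2, 6.14 and 7.41 FPKM in the lines. The groups were apart by only the gap between line 1 and wild-type replicate 2. The log2 fold change was -0.57 (SE 0.173, limma adjusted p = 0.0266). The HAT3 call ended without wild-type replicate 1 (limma adjusted p = 0.0983), without wild-type replicate 3 (0.0588), without line 2 (0.0816), without line 3 (0.0735) and with no filter (0.0927), in a range of 0.00162 to 0.0983 over its alternatives. After TPM rescaling the log2 fold change was -0.90.

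ATHB4 (AT2G44910, chromosome 2, 18517656 to 18519731, minus strand), the partner of HAT3 in leaf polarity, had 6.15, 2.93 and 3.61 FPKM in the wild-type samples against 5.97, 6.99 and 5.17 FPKM in the lines. Wild-type replicate 1 lay among the lines, and the log2 fold change of 0.47 (SE 0.22) was not called (limma adjusted p = 0.124). Without wild-type replicate 1 it was called higher (log2 fold change 0.72, limma adjusted p = 0.0137, range over its alternatives 0.0137 to 0.566), and without wild-type replicate 2 or after TPM rescaling the log2 fold change was 0.29 or 0.15. HAT3 was also highest in that replicate among the wild-type samples.

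**Figure D2:**
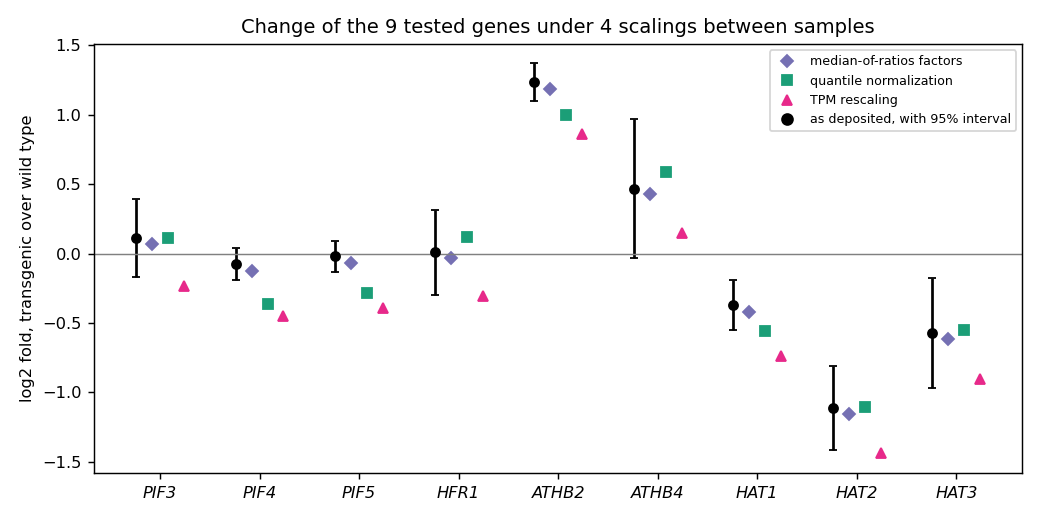
Log2 fold change, transgenic over wild type, of the 9 tested genes with the values as deposited (black, bars are 95% intervals from limma) and after 3 other scalings. ATHB2 stays above 0 and HAT1, HAT2 and HAT3 below it in all 4, while PIF4 and PIF5 move from near 0 to between -0.28 and -0.45 after quantile normalization or TPM rescaling.

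The make-up of the HD-ZIP II transcripts in each sample does not depend on the scale between samples, but the shares are parts of one whole, so a larger share of ATHB2 lowers the others by itself and their shares are no separate evidence that those genes fell. ATHB2 held 35.8%, 37.6% and 37.5% of the summed FPKM of the 5 HD-ZIP II genes in wild type and 62.4%, 67.6% and 67.9% in lines 1, 2 and 3. HAT1 held 38.6% ± 1.12 and 22.3% ± 1.61, HAT2 12.1% ± 0.969 and 3.91% ± 0.593, and HAT3 9.15% ± 1.61 and 4.46% ± 1.06 in wild type and lines (SD, n = 3). ATHB4 held 3.22% ± 1.37 and 3.42% ± 0.555.

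ATHB2 and HAT1 were at nearly the same level in every wild-type sample, with ATHB2 at 0.958, 0.959 and 0.953 times HAT1. In the lines ATHB2 stood at 2.58, 3.17 and 3.18 times HAT1. Over HAT2 it went from 3.19, 2.87 and 3.14 to 13.6, 19.1 and 19.0, with line 1 the lowest line in both ratios. ATHB2 over PIF4 went from 0.371, 0.403 and 0.413 to 0.990, 0.978 and 1.01. None of these 3 ratios overlapped between the groups, and with 3 samples against 3 an exact two-sided permutation test cannot give a p below 0.1, so no test was made of them.

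**Figure D3:**
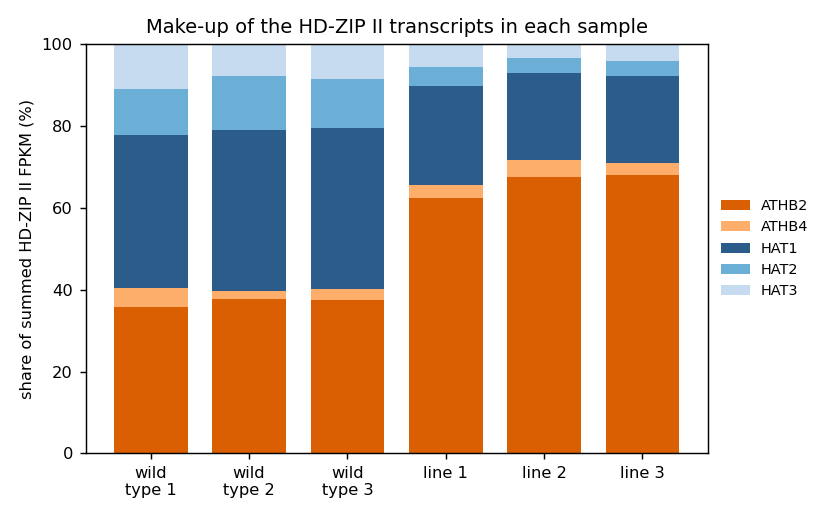
Share of each HD-ZIP II gene in the summed FPKM of the 5 genes, one bar per sample. ATHB2 takes 35.8% to 37.6% of the wild-type bars but 62.4% to 67.9% of those of the lines, and the shares of HAT1, HAT2 and HAT3 are smaller in every line than in every wild-type sample, as they must be in part when that of ATHB2 is larger.

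By level per transcript length, the wild-type order was PIF4, PIF5, HAT1, ATHB2, HAT2, HAT3, PIF3, HFR1, ATHB4 and PIL1. HAT1 and ATHB2 overlapped there, as did HAT3 and PIF3, and HFR1 and ATHB4. In the lines ATHB2 moved up beside PIF4, and the 2 overlapped, with means of 116.5 and 117.6 FPKM. HAT2 was in the fifth place in wild type and in the seventh in the lines, where it overlapped both HAT3 and ATHB4, and ATHB4 overlapped HFR1. Over the 6 samples PIF4, PIF5 and ATHB2 ranked at percentiles 93.8, 92.0 and 90.9 of all listed genes by mean FPKM, and PIL1 at percentile 19.2.

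The HD-ZIP II genes are alike in sequence, and so are PIF4 and PIF5. Coding sequences of HAT1 and HAT2 matched at 77.3% of aligned bases, and their transcripts shared an exact run of 38 bases, the longest among pairs within either family. ATHB4 and HAT3 shared 26 bases at 76.4% and PIF4 and PIF5 23 bases at 78.8%, while ATHB2 shared at most 18 bases with any of the other HD-ZIP II genes. How reads from shared stretches were assigned is not given in the sources used here. No other annotated gene overlaps any of the 10.

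Stretches upstream of ATHB2 and HAT1 are shown because these genes, which went in opposite directions, are the members that carry the HD-ZIP box within 1000 bases before their annotated start. The HD-ZIP box, CAATNATTG, is an inverted repeat bound by HD-ZIP II factors in vitro, and ATHB2 is known to repress its own gene. HAT2, HAT3, PIF4 and PIF5 are shown with a motif that PIFs bind. Each line gives reference sequence of the gene's own strand, 5′ to 3′, from RefSeq's TAIR10.1, with the motif in capitals and up to 20 bases on each side.
ATHB2 HD-ZIP box, chr4:9448617-9448665, plus strand: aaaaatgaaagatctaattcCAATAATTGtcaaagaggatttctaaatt
HAT1 HD-ZIP box, chr4:9738760-9738808, plus strand: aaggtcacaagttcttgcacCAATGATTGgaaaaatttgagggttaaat
HAT2 PBE-box, chr5:19218100-19218145, minus strand: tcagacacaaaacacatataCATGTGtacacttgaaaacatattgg
HAT3 PBE-box, chr3:22322913-22322958, minus strand: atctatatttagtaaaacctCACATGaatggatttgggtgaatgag
PIF4 PBE-box, chr2:17885574-17885619, plus strand: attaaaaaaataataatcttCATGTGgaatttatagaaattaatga
PIF5 G-box, chr3:21830977-21831022, minus strand: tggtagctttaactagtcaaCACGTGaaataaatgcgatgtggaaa

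The other motifs searched were those PIFs bind, the G-box CACGTG and the PBE-box, which reads CACATG on one strand and CATGTG on the other, each on both strands. No match of one motif lay over a match of another. Among 27443 protein-coding genes, the same window held the HD-ZIP box in 3.44%, a G-box in 14.8% and a PBE-box in 37.7%. The box lies 477 bases before the start of ATHB2 and 738 bases before that of HAT1. HAT2 had 3 PBE-boxes, a count of 2 or more being found in 10.5% of all promoters, and HAT1 had 2. PIF5 and HFR1 had a G-box each, that of HFR1 at 1000 bases, the far edge of the window. The window of PIF5 alone ran into a neighbouring gene, AT3G09185, which covers 257 of its bases. No match says only that the letters are not in the window, and PIF3, PIL1 and ATHB4 had none of the 3 motifs. A match is not a site of binding, and nothing in these libraries measures binding.

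**Figure D4:**
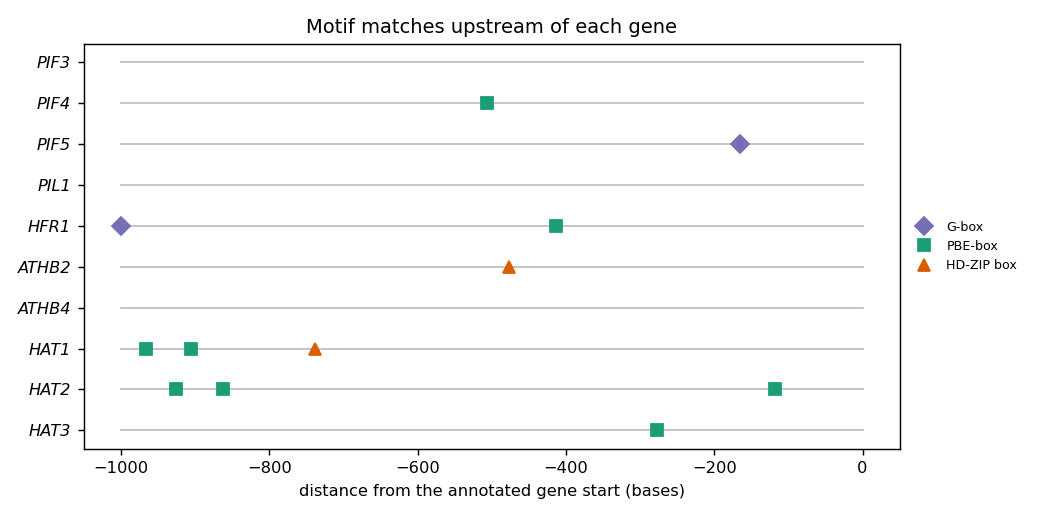
Positions of the 3 motifs in the 1000 bases before the annotated start of each gene, with distance from the start on the horizontal axis. HD-ZIP boxes lie before ATHB2 and HAT1, at 477 and 738 bases, and PBE-boxes before PIF4, HFR1, HAT1, HAT2 and HAT3.

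The other genes of the pathway were taken from 9 lists with 84 loci, of which 79 were in the table. Counts for these lists and for the marker lists stand beside 25.0% higher and 15.7% lower of all tested genes as deposited. After TPM rescaling those shares were 11.2% and 48.9%, and after quantile normalization 19.1% and 20.2%. The lists are short, and a count near these shares is no result about a list. PIF1, PIF6, PIF7, BBX25, BOP2, EBF2, XTH15, CKX5, LUX and ELF3 each overlap at least 1 other annotated gene. Since the use of strand is not stated, their values may hold its reads. Among the other HD-ZIP II genes 2 of 3 tested rose and 0 fell (median 0.77). HAT22, induced by cytokinin, rose from 22.3 ± 2.04 to 41.2 ± 1.85 FPKM (SD, n = 3; log2 fold change 0.86, limma adjusted p = 3.6e-05), and HAT14 rose from 6.13 ± 0.295 to 11.2 ± 1.92 FPKM (log2 fold change 0.77). After TPM rescaling these log2 fold changes were 0.49 for HAT22 and 0.42 for HAT14. HAT9, the close relative of HAT22, was not called. ATHB17 and ATHB18 averaged under 1 FPKM and were not tested. Within HD-ZIP II as a family, the called genes thus split into ATHB2, HAT14 and HAT22 higher and HAT1, HAT2 and HAT3 lower, a split that held in direction after quantile normalization and after TPM rescaling.

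Among the other PIF genes PIF7 and PIF1 were called as deposited, while PIF6 and PIF8 were not (limma adjusted p = 0.0768 and 0.447). After TPM rescaling PIF6 was called lower (log2 fold change -0.70). PIF7, the PIF most needed for the shade response of seedlings, rose from 16.6, 13.4 and 13.4 FPKM to 27.4, 25.3 and 26.5 FPKM (limma adjusted p = 0.000146, log2 fold change 0.83, SE 0.099). PIF1, which represses germination in darkness, fell from 9.38, 10.7 and 10.4 FPKM to 4.81, 5.91 and 4.75 FPKM (limma adjusted p = 0.000425, log2 fold change -0.86, SE 0.121). Neither pair of groups overlapped, and both calls held in all 16 alternatives, though after TPM rescaling the log2 fold change of PIF7 was 0.47. SPT, a related growth repressor, fell from 5.79 ± 0.455 to 3.04 ± 1.38 FPKM, with line 3 at 4.61 FPKM the nearest to wild type, and lost its call with no filter, without wild-type replicate 1 and without line 1 or 2 (limma adjusted p 0.0527 to 0.0701). In this list 1 of 6 rose, 2 fell and the median was -0.22.

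Of 6 tested photoreceptor genes, 1 rose and 1 fell. After TPM rescaling 1 was higher and 3 were lower, and after quantile normalization 1 was higher and 2 were lower. PHYB, the main phytochrome of light-grown plants, rose from 13.6 ± 2.06 to 23.0 ± 0.669 FPKM (log2 fold change 0.72, limma adjusted p = 0.000657), and its log2 fold change after TPM rescaling was 0.36. PHYA, the far-red receptor, had 36.2, 38.4 and 32.1 FPKM in the wild-type samples against 41.5, 41.4 and 39.7 FPKM in the lines and was not called (log2 fold change 0.20, limma adjusted p = 0.0746). Without wild-type replicate 2 PHYA was called higher (log2 fold change 0.25, limma adjusted p = 0.0467), without wild-type replicate 3 its log2 fold change was 0.13, and after TPM rescaling it turned to -0.17. The blue-light receptor gene CRY1 fell by 0.20 on the log2 scale, a call at limma adjusted p = 0.0439 that ended in 7 of 16 alternatives, among them leaving out wild-type replicate 1 or 2 or line 1 or 2. CRY1 was at -0.57 after TPM rescaling.

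Downstream of the photoreceptors 6 of 13 tested genes rose, 3 fell and the median was 0.21; after TPM rescaling 3 rose and 4 fell. BBX25, a B-box factor that holds HY5 back, rose from 10.6 ± 0.342 to 25.3 ± 4.41 FPKM, and SPA1, a partner of the COP1 ubiquitin ligase, rose from 15.8 ± 1.75 to 25.6 ± 0.643 FPKM (log2 fold change 0.67, or 0.30 after TPM rescaling). BBX21, a B-box factor that activates HY5, fell from 28.1 ± 2.26 to 13.9 ± 1.20 FPKM, and FHY1, which carries PHYA into the nucleus, fell from 23.0 ± 1.88 to 13.2 ± 1.84 FPKM. HY5, the bZIP factor that opposes PIFs at shared targets, had 1.11, 5.39 and 5.65 FPKM in the wild-type samples against 2.47, 3.86 and 3.69 FPKM in the lines. Wild-type replicate 1 lay below every line and the other wild-type samples above every line, and HY5 was not called (limma adjusted p = 0.918). Without wild-type replicate 1 it was called lower (log2 fold change -0.60, limma adjusted p = 0.0439; range over its alternatives 0.0439 to 0.996).

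Genes for PIF turnover had 2 of 9 higher and 3 lower (median -0.091), and 1 higher and 6 lower after TPM rescaling. EBF1, an F-box gene of ethylene signalling that also acts on PIF3, rose from 55.8 ± 9.68 to 91.2 ± 3.10 FPKM (log2 fold change 0.71, or 0.47 after quantile normalization and 0.34 after TPM rescaling). EBF2, its partner, rose by 0.27 on the log2 scale (limma adjusted p = 0.0249). The EBF2 call ended after quantile normalization, cyclic loess and TPM rescaling (log2 fold change -0.095), with no mean-variance trend, and when wild-type replicate 2, wild-type replicate 3, line 1 or line 2 was left out, its adjusted p running up to 0.334. BOP2, part of a ubiquitin ligase for PIF4 and also a gene of leaf base patterning, fell from 6.65 ± 1.49 to 3.23 ± 0.423 FPKM, and LRB1, part of a ligase for PIF3, fell from 28.2 ± 1.96 to 22.6 ± 0.929 FPKM (log2 fold change -0.31, or -0.67 after TPM rescaling; limma adjusted p = 0.051 without wild-type replicate 1). Among proteins that bind PIFs, 3 of 7 genes rose and 2 fell (median 0.25). After TPM rescaling 1 was higher and 3 were lower, and after quantile normalization 2 were higher and 3 lower. The DELLA repressor gene GAI fell from 34.7 ± 4.03 to 20.2 ± 1.86 FPKM while RGL3, another DELLA gene, rose from 10.1 ± 0.402 to 18.0 ± 2.21 FPKM (log2 fold change 0.77, or 0.41 after TPM rescaling). RGL1, also a DELLA gene, rose by 0.44 on the log2 scale and lost its call after TPM rescaling (log2 fold change 0.082, limma adjusted p = 0.488). ARF6, an auxin response factor, fell from 32.6 ± 3.15 to 22.2 ± 0.955 FPKM (log2 fold change -0.53, or -0.89 after TPM rescaling).

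Of the HLH genes whose proteins do not bind DNA, 2 of 6 fell and 0 rose (median -0.45). After TPM rescaling 6 were lower, where 48.9% of all tested genes were called lower. PAR1, a shade-induced inhibitor of PIF4, fell from 30.9, 28.7 and 30.4 FPKM to 16.3, 16.0 and 15.5 FPKM (limma adjusted p = 1.54e-05, log2 fold change -0.87, SE 0.073). The lines lay close together, well below wild type. PRE6, a growth-promoting member, fell from 9.15 ± 1.09 to 4.60 ± 1.83 FPKM, a call that ended with no filter (limma adjusted p = 0.0717) and without wild-type replicate 2 (0.0545); without line 2 its log2 fold change went from -0.91 to -0.60.

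Known targets of PIFs in shade did not move one way. Of 11 tested, 5 rose and 5 fell, with a median of 0.21, and after TPM rescaling 4 rose and 5 fell. Among those that fell, SAUR19, SAUR22 and SAUR23 are close copies lying near each other on chromosome 5 that may share reads. Their falls (log2 fold changes -0.97, -0.98 and -1.87) may therefore not be separate. CKX5, a cytokinin-degrading enzyme, rose from 2.76, 3.60 and 3.53 FPKM to 17.3, 17.2 and 17.2 FPKM (limma adjusted p = 1.05e-06, log2 fold change 2.09, SE 0.117). XTH15, a wall-loosening xyloglucan enzyme, fell from 38.0, 47.0 and 40.7 FPKM to 6.76, 3.45 and 5.58 FPKM (limma adjusted p = 3.3e-06, log2 fold change -2.81, SE 0.187). Both groups of values lay far apart, in opposite directions.

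IAA19, an auxin-inducible repressor of auxin response, rose from 19.0 ± 2.50 to 33.5 ± 1.11 FPKM (log2 fold change 0.80, or 0.43 after TPM rescaling). SAUR23, a small auxin-induced growth gene with close copies beside it that may share reads, fell from 15.5 ± 5.40 to 3.50 ± 1.33 FPKM. ST2A, a jasmonate sulfotransferase, had 11.6, 7.36 and 3.46 FPKM in the wild-type samples against 14.0, 14.2 and 15.9 FPKM in the lines. Its wild-type samples spread widely, and its call (limma adjusted p = 0.0265) ended in 7 of 16 alternatives, among them leaving out wild-type replicate 2 or any of the lines. Its log2 fold change of 1.01 became 0.61 without wild-type replicate 3 and 0.66 after TPM rescaling. The auxin synthesis gene YUC8 had 0.649, 0.934 and 0.678 FPKM in the wild-type samples against 0.946, 1.21 and 1.08 FPKM in the lines and was below the filter.

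**Figure D5:**
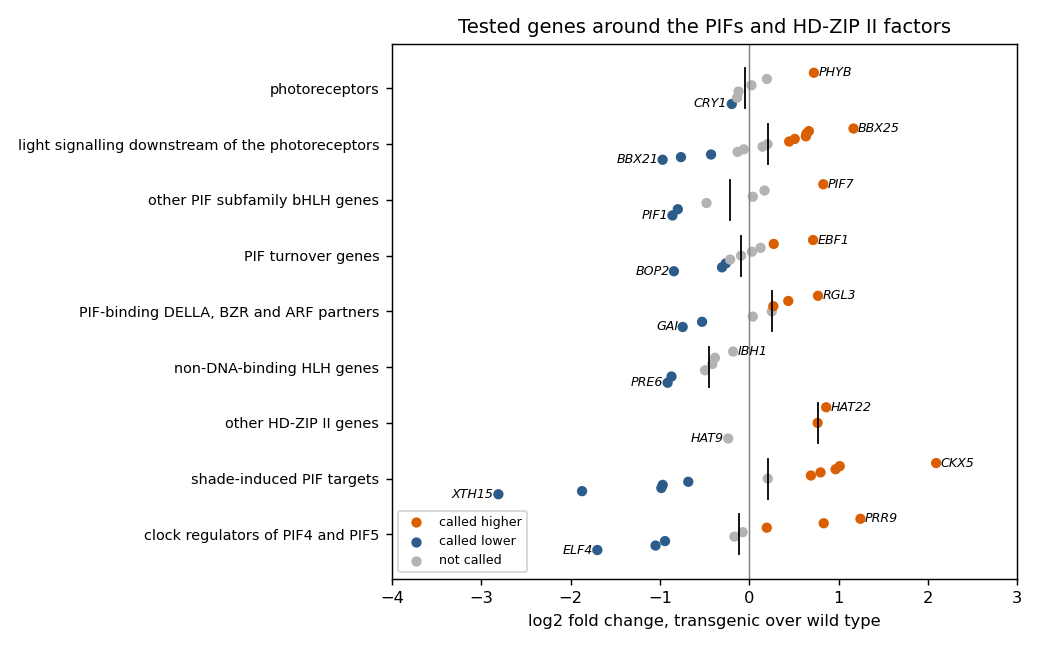
Log2 fold change, transgenic over wild type, of each tested gene of the 9 pathway lists, coloured by call, with a black line at each list's median and the lowest and highest gene named. Shade-induced PIF targets run from XTH15 at -2.81 to CKX5 at 2.09, and clock regulators from ELF4 at -1.70 to PRR9 at 1.24.

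PIF4 and PIF5 transcripts are under the circadian clock, held down in the evening by a complex of LUX, ELF3 and ELF4. All 3 of these fell. LUX fell from 44.0, 47.0 and 46.5 FPKM to 21.8, 19.3 and 24.2 FPKM (log2 fold change -1.05, limma adjusted p = 1.56e-05). ELF3 fell from 19.4 ± 0.526 to 9.62 ± 0.574 FPKM and ELF4 from 36.2 ± 3.66 to 10.5 ± 2.19 FPKM, and the groups were apart in all 3. PRR9, a morning clock repressor, rose from 2.74 ± 0.629 to 7.78 ± 0.645 FPKM. Of 8 tested clock genes 3 rose and 3 fell (median -0.12). After TPM rescaling 2 rose and 6 fell, where 11.2% of all tested genes were called higher and 48.9% lower. The hour at which each group was harvested is not in the labels, and its part in the PIF and HD-ZIP II values was not tested.

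HD-ZIP II genes are also active in young leaf tissue and in the vasculature, and in whole leaves fewer cells of a type cannot be told apart from less RNA per cell. Of 9 meristem and organ-boundary markers, only STM, KNAT1, KNAT2 and ANT were tested, and all 4 fell. STM, which keeps the shoot meristem undifferentiated, fell from 27.4 ± 1.26 to 9.87 ± 0.322 FPKM, and KNAT1, its relative, from 9.83 ± 0.654 to 4.80 ± 1.31 FPKM. The boundary markers CUC1, CUC2 and CUC3 were below the filter, and their groups overlapped. Mean FPKM went from 0.614 to 0.677 for CUC1, from 0.752 to 0.489 for CUC2 and from 0.142 to 0.236 for CUC3. The call of ANT, an organ growth gene among the 4 (log2 fold change -0.39, limma adjusted p = 0.0187), ended when any wild-type sample was left out (0.054, 0.0607 and 0.0521 for replicates 1, 2 and 3) or when line 2 was (0.0584), and its log2 fold change after TPM rescaling was -0.71. The summed level of the 9 markers, of which STM was the largest part, was 48.6 to 51.4 FPKM in the wild-type samples against 20.3 to 26.7 FPKM in the lines. WUS was at 0 in every sample, and CLV3 was at 0 in every sample except line 3 (0.533 FPKM). The 5 mesophyll markers all rose, from sums of 28400 to 29540 FPKM to sums of 48730 to 50340 FPKM. After TPM rescaling 5 were called higher, and after quantile normalization 3 of the 5 were. Quantile normalization gives equal ranks equal values, so it can hide a change of genes that rank highest in every sample. Of 5 flower markers 4 were tested and 0 were called with limma, 0 also at an unadjusted p under 0.05, with sums of 8.33 to 9.19 and 3.80 to 8.34 FPKM, and none of the 4 root markers in the table reached the filter. The tested meristem markers and the mesophyll markers differed between the same groups as ATHB2, HAT1, HAT2 and HAT3, and their part in those differences was not tested.

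By mean absolute difference of mean-centred log2(FPKM + 1) over the 6 samples, the genes outside the lists most like ATHB2 were AT5G13200, annotated as a GRAM domain protein (0.0143), AT4G12980, annotated as auxin-responsive (0.0191), and AT1G56140, a leucine-rich repeat receptor kinase gene (0.0264). AT5G13200 had 99.9, 114.4 and 108.7 FPKM in the wild-type samples against 247.2, 252.5 and 262.1 FPKM in the lines. Those most like PIF4 were AT4G38200, a SEC7-type guanine nucleotide exchange factor gene (0.0130), SNX1 (AT5G06140), a sorting nexin gene (0.0145), and UPL2 (AT1G70320), a ubiquitin ligase gene (0.0171), none of which was called. Likeness over 6 samples in 2 groups is a description and rests mostly on the group difference for ATHB2.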

How the data were processed

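The authors deposited FPKM in a single table whose columns are the 6 samples. The submitters' processing notes list TopHat2, DESeq and TAIR10 without saying what each did. Which program made the FPKM, on which annotation and with what use of strand is not given in the sources used here. Absolute depth is unknown: low values were compared between samples, but at most 10.0% of low genes shared 1 ratio, and no reads were recovered, so no count test, interval or floor is given. Precision rests on 3 samples per group.

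The comparison used limma 3.58.1 (R 4.3.3) with a mean-variance trend on log2(FPKM + 1), all 6 samples and no covariate; the code was tested on simulated data. Gene structures, coordinates and promoter sequence come from RefSeq's TAIR10.1. Alternatives were a pseudocount of 0.1 or 0.5, no filter, a mean of at least 5 FPKM, 4 other scalings, no trend, a replicate block and leaving out each sample. TPM rescaling divides each column by its sum.

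The 10 genes, the pathway and marker lists and the tests were chosen with earlier results of these data known. Named genes are all 10, up to 4 called genes per list with the largest change, and PHYA, PHYB, HY5, PIF1, PIF7, IAA19, YUC8, XTH15, LUX and ELF3. A few others are named only to qualify the count of a list, after their values were seen. Mesophyll markers, and meristem markers apart from those named, are given as counts and sums, and ANT is named after its values were seen, for the loss of its call.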

Additional observations from a re-analysis of the deposited data

How the results depend on the processing

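Among the 9 tested genes of the set, 80 of 90 values under the other settings and 46 of 54 with a sample left out kept their direction and their side of the threshold. The number called lower was 5 under TPM rescaling, quantile normalization and cyclic loess, against 3 as deposited, because PIF4 and PIF5 joined it, and ran from 2 to 3 with a sample left out. The number called higher ran from 1 to 2, ATHB4 joining without wild-type replicate 1. The count over all genes stayed within 1.5 times of 6949. Directions that turned were all of genes not called, EBF2 excepted. After TPM rescaling the log2 fold changes were -0.24 for PIF3, -0.31 for HFR1, -0.17 for PHYA and -0.095 for EBF2, and with median-of-ratios factors -0.033 for HFR1. HY5 was at 0.0044 with a pseudocount of 0.1, 0.074 with quantile-normalized and 0.080 with cyclic loess values, and ran from -0.60 to 0.22 with a sample left out. With a sample left out PIF5 ran from -0.033 to 0.0044 and HFR1 from -0.090 to 0.097. The cause was not tested. Deviations of same-numbered samples correlated at -0.035, 0.049 and -0.024 across genes. No pairing of the samples was thus visible by their title numbers, which with 3 samples per group does not mean that there is none. With these numbers as a replicate block the calls were 4155 higher and 2551 lower over all genes, 1 higher and 3 lower in the set, and of the values for named genes CRY1 lost its call (limma adjusted p = 0.0651). With FPKM and no counts, the noise of the lowest genes, PIL1 and ATHB4 above all, cannot be separated into counting and biological parts.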
